A study of Mus musculus with 2 samples.

Results

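The regions described here are stretches of chromatin enriched with an Otp antibody whose summit lay near a gene without sitting at its very edge. CUT&RUN releases the DNA around an antibody-bound protein by cutting it with a tethered nuclease. The libraries came from the adult PVN, the paraventricular nucleus of the hypothalamus, taken from wild-type mice and labelled as neurons, with 1 library for the Otp antibody and 1 for IgG, an antibody with no target. The labels give no sex, age in weeks or number of animals, and no group carries an added allele or treatment. The series asks whether Otp binds at the promoter of Mc4r.

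Members were chosen by the deposited peak calls and their summit positions. A region counted when it lay on chromosomes 1 to 19, overlapped no region of the IgG list, had its summit more than 100 bp and at most 1 kb from the nearest end of a protein-coding gene, and had no other protein-coding gene with an end within 1 kb. Of the 11379 Otp regions, 1985 did so (17.4%, 95% exact binomial interval 16.8 to 18.2%). Of these, 765 (38.5%, 36.4 to 40.7%) had the summit inside the gene and 1220 outside it. They belonged to 1886 genes. With 1 library per antibody nothing below has a replicate check, and no test between the libraries was possible. Regions are not replicates, so values are given as descriptions, and the intervals cover counting error only. The IgG list held 291 regions. The region at Mc4r is not a member, since its summit lay 62 bp from the gene end.

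A promoter is the stretch of DNA around the start of a gene where RNA polymerase and general factors assemble. Many mouse promoters are rich in CG dinucleotides (CpG), hold short letter patterns read by widely expressed factors, and are kept open in most tissues. Genes often have several starts, so that a site inside the longest form of a gene can be the promoter of a shorter one. Otp (Orthopedia) is a homeodomain transcription factor that specifies neuroendocrine neurons of the PVN, and homeodomains of its kind bind patterns built on the letters TAAT.

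The bases at the strongest regions outside a gene show what kind of sequence lay under the summits. Shown are those 8 of the 15 strongest outside regions, in order of the deposited −log10 q, whose summit fell in the RefSeq promoter table, which reaches from 250 bases before an annotated start to 50 after it (build GRCm38.p6, the assembly of mm10). Each runs 5′ to 3′ in the direction of the gene, from 50 bases before to 50 after the summit where the table reaches. Capitals mark a CCAAT box (CCAAT, or ATTGG on the other strand) or a GC box (GGGCGG, or CCGCCC on the other strand), the patterns of the factors NF-Y and Sp1. The other patterns searched in all promoters had no match in these stretches apart from TAAT, which is not capitalised.
Cnot3 (chr7:3645019-3645081, forward strand): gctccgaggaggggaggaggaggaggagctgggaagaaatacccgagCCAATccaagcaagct
Lrch4 (chr5:137628888-137628988, forward strand): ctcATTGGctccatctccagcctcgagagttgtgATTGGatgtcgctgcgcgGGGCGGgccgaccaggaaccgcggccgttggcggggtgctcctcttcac
Camta1 (chr4:151861893-151861993, reverse strand): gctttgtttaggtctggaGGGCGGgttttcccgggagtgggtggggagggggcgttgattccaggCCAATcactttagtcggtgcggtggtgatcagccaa
Wipi1 (chr11:109611520-109611620, reverse strand): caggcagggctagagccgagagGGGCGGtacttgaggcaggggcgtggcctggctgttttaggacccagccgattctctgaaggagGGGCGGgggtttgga
Qdpr (chr5:45450368-45450468, reverse strand): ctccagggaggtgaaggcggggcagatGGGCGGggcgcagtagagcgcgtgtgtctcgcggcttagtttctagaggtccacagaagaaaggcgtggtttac
Trim24 (chr6:37870619-37870719, forward strand): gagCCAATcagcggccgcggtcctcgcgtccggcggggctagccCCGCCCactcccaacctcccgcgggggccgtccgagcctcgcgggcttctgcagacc
Hykk (chr9:54917085-54917185, forward strand): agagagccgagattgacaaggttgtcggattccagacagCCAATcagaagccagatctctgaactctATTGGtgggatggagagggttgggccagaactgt
Glce (chr9:62122807-62122859, reverse strand): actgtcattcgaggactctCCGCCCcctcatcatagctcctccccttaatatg

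All 8 stretches held a CCAAT box or a GC box. Over all 555 outside stretches that could be read in full, 34.8% held a CCAAT box and 45.6% a GC box. The share holding either pattern was not counted there, so the 8 of 8 has no share to be set against. The stretch at Trim24, a chromatin reader and transcriptional coregulator, had 14 CG dinucleotides and a GC content of 77.2%. That at Hykk, a kinase of hydroxylysine breakdown, had 2 and 51.5%. None held TAATTA. The letters TAAT, in either direction, appeared 1 time among the 8, at Glce.

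Regions outside the gene crowded against its start. Of the 1220, 781 (64.0%, 61.3 to 66.7%) had the summit more than 100 and at most 200 bp from the gene end, 179 lay at 200 to 300 bp, and the counts fell to 20 in the last 100 bp before 1 kb. Regions inside the gene were spread more evenly, with 147 of 765 (19.2%, 16.5 to 22.2%) at 100 to 200 bp, 155 at 200 to 300 bp and 41 at 900 to 1000 bp. Fold enrichment is the deposited ratio of tags at the summit to the background the caller estimated, with 1 added to both. Its median was 8.46 (95% interval 8.24 to 8.79) in the nearest 100 bp outside and 6.20 (5.60 to 6.61) in the farthest. Inside the gene the same medians were 6.89 (6.56 to 7.49) and 6.63 (5.50 to 8.49), with intervals that overlap.

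**Figure D1:**
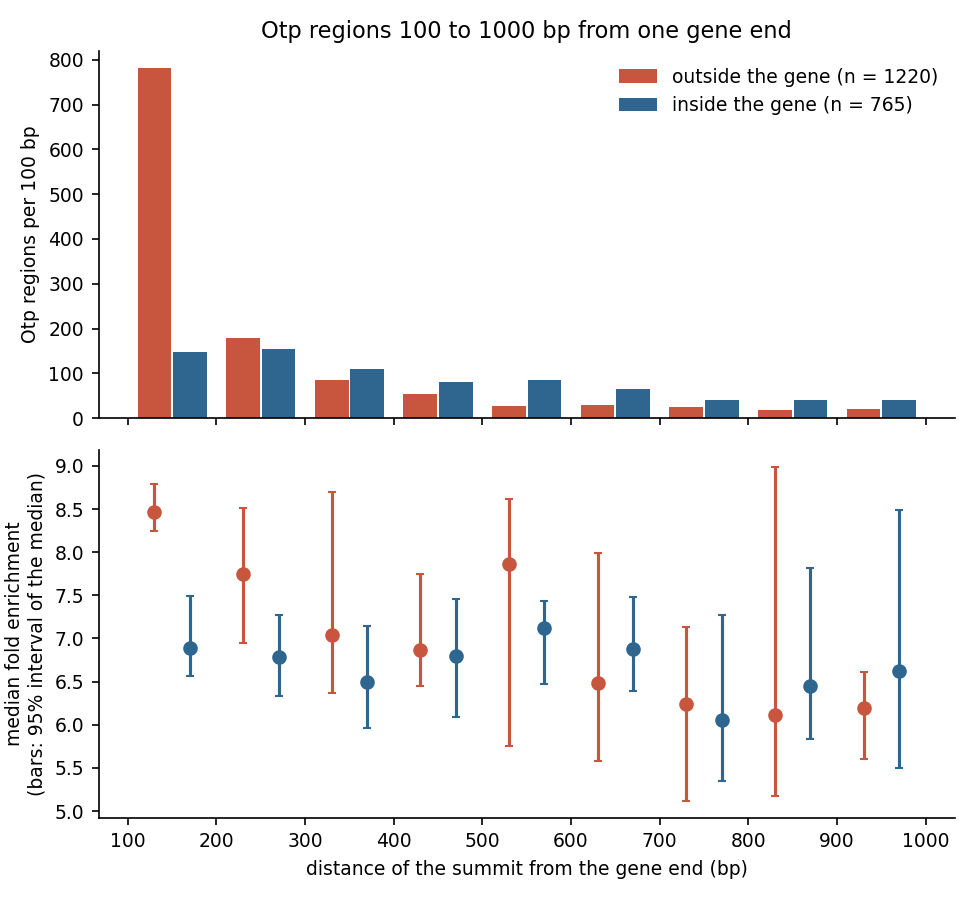
Otp regions by distance of the summit from the gene end in steps of 100 bp, outside (red, n = 1220) and inside (blue, n = 765) the gene. The upper panel counts regions, with 781 outside and 147 inside in the first step. The lower panel gives the median deposited fold enrichment with its 95% interval, which runs from 8.46 to 6.20 outside and from 6.89 to 6.63 inside.

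The lower bound of 100 bp cuts through a continuous run of regions. Outside genes, with the other rules kept, 394 regions had the summit more than 75 and at most 100 bp from the end, with a median fold enrichment of 8.47, and 281 lay from 100 to 125 bp, with 8.55. Inside genes the counts were 70 and 60. With an inner bound of 200 bp in place of 100 bp, 1057 regions were left and 58.5% of them lay inside the gene. Just below the bound, at 100 bp, lay regions of Vps26a (fold enrichment 16.0), Acss2 (13.9) and Ulk1 (14.8). Just above it, 1 bp farther out, lay those of Lonrf1 (12.7), Rpl31 (12.8) and Gatb (10.04). At the outer bound, Fam83a (999 bp, 4.84), Socs1 (998 bp, 6.30) and Smim27 (997 bp, 6.53) lay just within, and Cdh16 (1 bp past the bound, 4.91), Wdcp (1004 bp, 5.85) and Bahd1 (1005 bp, 6.08) just beyond.

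The 2 sides also differed in the height and width of their regions. The median fold enrichment was 8.02 outside (95% interval 7.83 to 8.23, interquartile range 6.24 to 10.5) and 6.77 inside (6.58 to 6.98, 5.58 to 8.52). The median width was 197 bp outside (189 to 204) and 141 bp inside (132 to 148). Regions within 100 bp of 1 gene end lay between them, with 7.58 and 161 bp. Regions over 1 kb from any gene end had 6.45 and 105 bp where they lay inside genes and 6.61 and 101 bp where they lay outside. A −log10 q of at least 10, a stricter threshold than that of the list, was reached by 53.7% (50.8 to 56.5%) of the outside regions, 33.1% (29.7 to 36.5%) of the inside ones and 43.6% (41.6 to 45.6%) of those within 100 bp. It was reached by 21.9% and 19.9% of regions over 1 kb away, inside and outside genes. These values come from the peak calls that chose the regions.

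**Figure D2:**
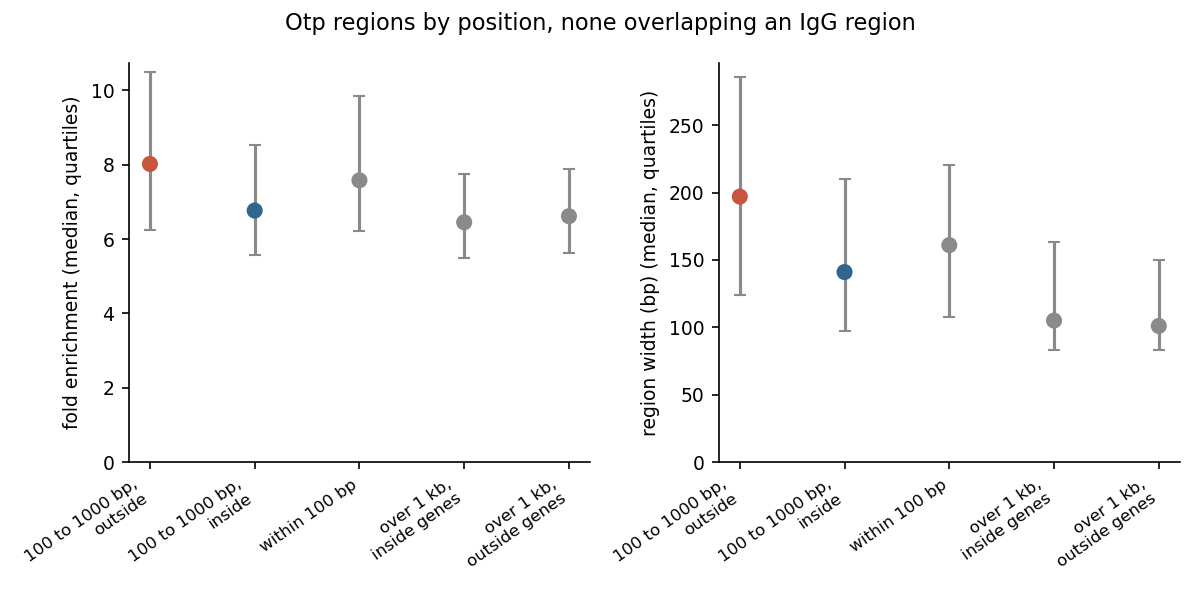
Median fold enrichment (left) and region width in bp (right) by position, with bars from the lower to the upper quartile. Regions 100 to 1000 bp outside the gene have the highest medians of the 5 classes plotted, 8.02 and 197 bp, and those 100 to 1000 bp inside it have 6.77 and 141 bp.

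Nearly all of these regions lay at the start of their gene. The RefSeq promoter table gave a strand for the genes of 1613 of the 1985 regions, and 1549 of the 1613 (96.0%) were at the end where the gene starts. Of the 1613, 961 lay before the start, 588 inside at the start, 28 inside at the far end and 36 past the far end. Among regions within 100 bp of 1 gene end, 1962 of 1966 (99.8%, 99.5 to 99.9%) were at the start.

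The few regions at the far end had lower median fold enrichments than those before the start, with intervals that overlap that of the regions inside at the start. Those past the far end had a median fold enrichment of 6.64 (5.95 to 6.98) and those inside it 5.98 (5.40 to 7.40), against 8.19 (7.95 to 8.40) before the start and 6.83 (6.63 to 7.06) inside at the start. Of the 64 at the far end, 5 (7.81%, 2.59 to 17.3%) had an end of a non-coding gene within 1 kb. At the start 282 of 1549 (18.2%, 16.3 to 20.2%) did. The region at Trh, the gene of thyrotropin-releasing hormone, a peptide by which the PVN drives the thyroid axis, was one of the far-end group. It covered chr6:92241334-92241414, 688 bp past the far end and 3277 bp after the annotated start, with 12 tags at the summit (95% Poisson interval 6.20 to 21.0) and a fold enrichment of 8.01. The regions of the potassium channel genes Kcna2 (13 tags, fold enrichment 6.97, 442 bp before the far end) and Kcnd3 (11 tags, 6.89, 773 bp past it) were of this kind too. A tag is a read or fragment as the authors' caller counted it, worked out from the deposited values. Scaled to the IgG library as described below, the tags of the Trh, Kcna2 and Kcnd3 regions were fewer than those of its weakest region. The lack of an IgG region there shows no difference from IgG.

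Many inside regions also lay close to a start of their own gene, since the nearest annotated start need not be the outermost gene end. Of the 588 inside regions at the start, 310 (52.7%, 48.6 to 56.8%) had the summit before the nearest annotated start, and 221 (37.6%, 33.7 to 41.6%) lay within 100 bp of one. The median position was 13.5 bp before a start, with quartiles at 102 bp before and 239.5 bp after. In 418 of the 588, the outer end of the gene was not itself a start in the promoter table, and 279 of these (66.7%, 62.0 to 71.2%) lay before an annotated start. In the other 170 the gene end was such a start, and 31 (18.2%, 12.7 to 24.9%) lay before a further start inside the gene. Inside regions before a start had a median fold enrichment of 7.29 (6.98 to 7.61) and a width of 148.5 bp (133 to 166). Those after a start had 6.43 (6.18 to 6.69) and 132.5 bp (119 to 143). Among inside regions with a −log10 q of at least 10, 124 of 201 (61.7%, 54.6 to 68.4%) lay before a start.

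**Figure D3:**
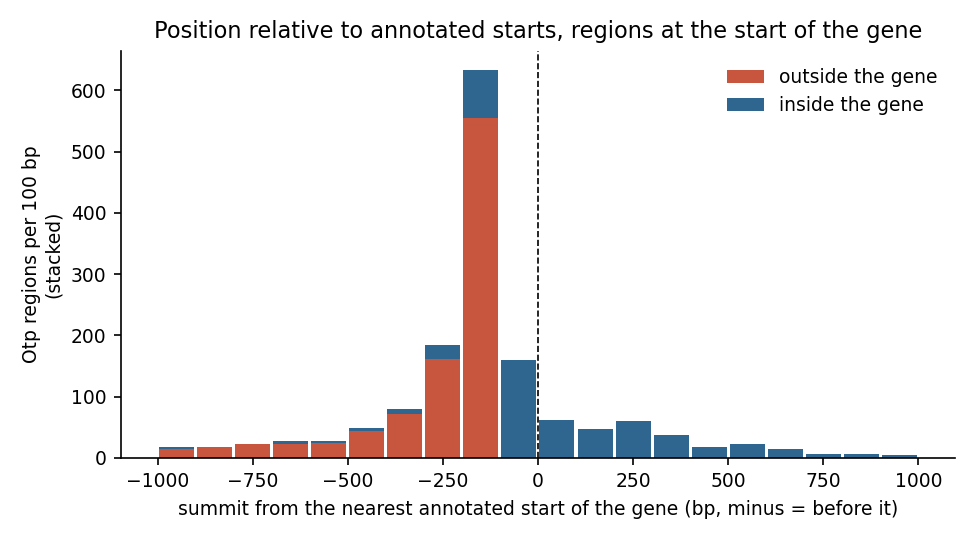
Regions at the start of their gene by distance of the summit from the nearest annotated start of that gene, in steps of 100 bp, stacked by side of the gene end, within 1 kb of a start. Outside regions peak at 555 from 200 to 100 bp before a start, and inside regions peak at 160 in the last 100 bp before one.

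The strongest outside regions were led by that of Sp1. The 15 with the highest −log10 q had 52 to 125 tags at the summit, fold enrichments of 16.4 to 22.0 and widths of 254 to 729 bp, and their summits lay 110 to 374 bp from the gene end. Sp1, the zinc finger factor that binds GC boxes, had 125 tags (104 to 149) at chr15:102405618-102406294, with the summit 374 bp before its start. Osbp, a carrier of oxysterols, had 89 tags (71.5 to 110) 369 bp before its start. At Zbtb20, a BTB zinc finger repressor, the summit with 97 tags lay 156 bp outside the gene end, but 371751 bp before the nearest start in the promoter table. Evi5l, of a family of Rab GTPase-activating proteins, had 92 tags with the summit 317 bp before its start.

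The other outside regions of this group had 52 to 73 tags. Cnot3, a subunit of the CCR4-NOT complex that shortens mRNA tails, had 73 tags (57.2 to 91.8). Wipi1, which helps to form autophagosomes, had 72 tags and Camta1, a calmodulin-binding transcription activator of the brain, had 66. Qdpr, which regenerates the cofactor of monoamine synthesis, had 59 tags, and Glce, an epimerase of heparan sulfate, had 57. Trim24 had 56 tags, Hsd17b12, an enzyme of fatty acid elongation, had 56, and Hykk had 52 tags but the highest fold enrichment of all members, 22.0. Garem1 (70 tags), Lrch4 (66) and Tomm40l (65) completed the 15. In order of tags, the Poisson intervals of neighbours overlap, while that of Sp1 (104 to 149) lies above those of Hykk (38.8 to 68.2) and Cnot3.

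The strongest inside regions were lower. Of the 15, 9 had the summit before an annotated start, and Ptov1 and Hspa13 could not be placed. Among all inside regions at the start with a −log10 q of at least 10, the share before a start was 61.7%. The 15 had 34 to 79 tags, fold enrichments of 12.7 to 19.9 and summits 111 to 949 bp inside the gene end. Gtpbp1, a GTPase linked to mRNA turnover and translation, had 79 tags (62.5 to 98.5) at chr15:79690318-79690838, 596 bp inside the gene end and 299 bp before an inner start. Cic, the repressor Capicua, had 76 tags (59.9 to 95.1) 273 bp after a start. Gpbp1, named for binding GC-rich promoters, had 60 tags 110 bp after a start, and its fold enrichment of 19.9 was the highest inside a gene. Klf7, a zinc finger factor of developing neurons, had 54 tags 346 bp before an inner start. Pwwp2a, a chromatin protein that binds the histone variant H2A.Z, had 51 tags 174 bp before one, and Gpr108 had 56 tags 170 bp before one.

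The remaining inside regions of this group had 34 to 60 tags. Cenpc1, a centromere protein, had 47 tags 88 bp before an inner start, Arl4a, a small GTPase, had 42 tags 65 bp before one and Gm38396 had 34 tags 43 bp before one. Sec16a, which organises exit sites of the endoplasmic reticulum, had 50 tags 269 bp before one. Cdk12, a kinase of transcription elongation, had 42 tags 586 bp before one. After a start lay Desi2 (43 tags, 172 bp) and Tnrc6c, of microRNA silencing (40 tags, 363 bp). Ptov1 (60 tags) and Hspa13 (41 tags) had no strand in the table.

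**Figure D4:**
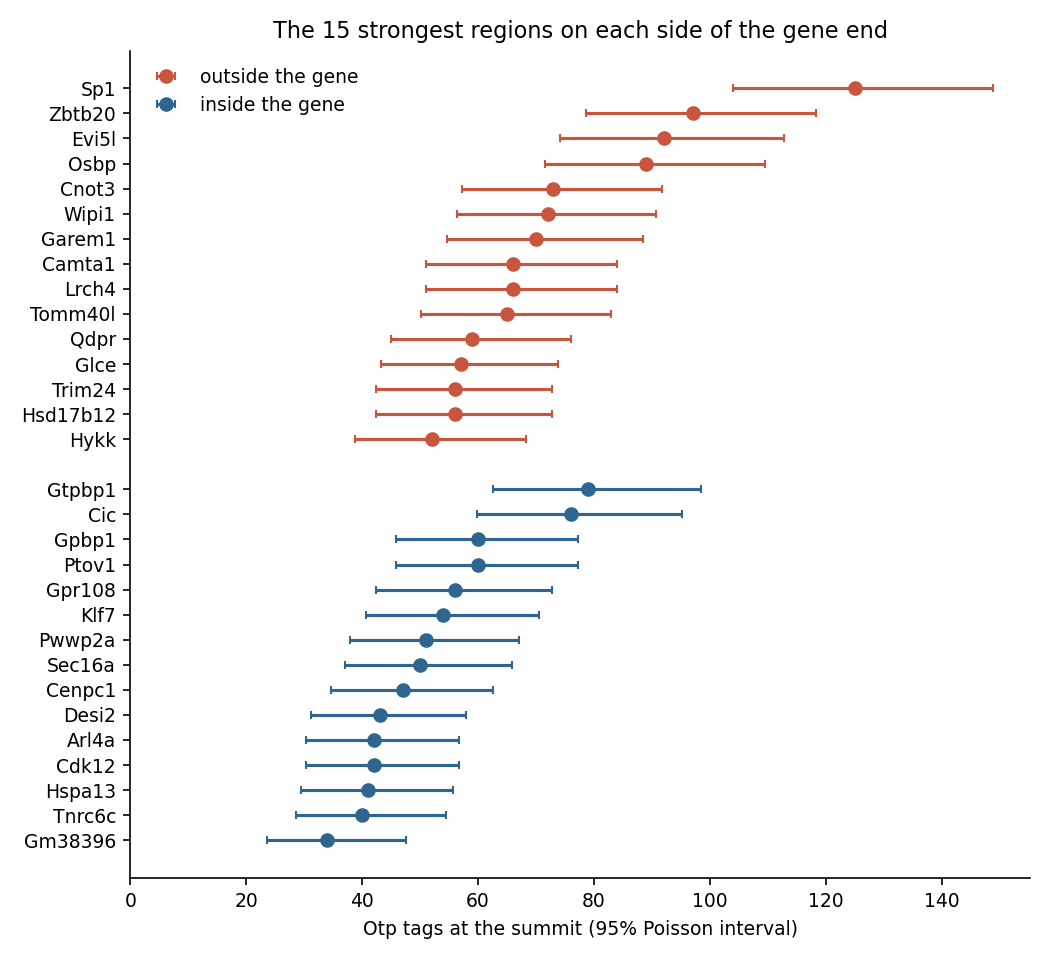
Otp tags at the summit of the 15 strongest regions outside (red) and inside (blue) the gene, with 95% Poisson intervals. Outside regions run from 52 tags at Hykk to 125 at Sp1, and inside regions from 34 at Gm38396 to 79 at Gtpbp1.

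The promoters under these summits were rich in CpG. For 659 outside regions and 292 inside regions the summit fell in a promoter window of 300 bases. Median GC content was 64.0% in the outside windows (interquartile range 59.7 to 68.7%) and 63.5% in the inside windows (58.7 to 69.0%), against 57.0% (48.7 to 65.0%) in all 20063 windows of protein-coding genes on these chromosomes. The share of CpG-rich windows, here GC over 55% with an observed to expected CpG ratio over 0.65, was 82.2% outside, 72.6% inside and 64.3% for regions within 100 bp of a gene end, against 39.0% of all windows. Windows of regions within 100 bp had a median GC content of 60.7%.

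CCAAT boxes were more frequent at the summits than in all promoters, also among CpG-rich windows. The bases around the summit could be read in full where it lay from 1 to 200 bp before an annotated start, so that 50 bases on each side fell in the window, which held for 555 outside and 240 inside regions. A CCAAT box lay in this stretch in 193 of 555 outside regions (34.8%, 30.8 to 38.9%) and in 82 of 240 inside regions (34.2%, 28.2 to 40.5%). All promoters held one in 15.5% of stretches of the same length placed 139 bp before the start, the median place of these 555 outside summits, and in 21.2% placed 69 bp before it, that of these 240 inside summits. In CpG-rich windows alone, a comparison added after the data were seen, the shares were 32.2% (27.9 to 36.7%) of outside stretches against 14.8% of all, and 32.9% (26.0 to 40.5%) of inside stretches against 21.5% of all. Regions within 100 bp of a gene end held a CCAAT box in 35.9% of stretches (33.5 to 38.3%). Of the CCAAT matches in the outside stretches, 70 lay less than 15 bases from the summit, 74 from 15 to 30 and 97 from 30 to 45, and in the inside stretches 27, 46 and 30.

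GC boxes were frequent too, and for the inside regions their share among CpG-rich windows lay near that of all promoters. They lay in 45.6% (41.4 to 49.8%) of outside stretches and 47.5% (41.0 to 54.0%) of inside ones, against 19.4% and 31.6% of all promoters in the same places. In CpG-rich windows the outside share was 49.8% (45.1 to 54.5%) against 38.5%, and the inside share 53.8% (46.0 to 61.4%) against 56.4%. GC box matches numbered 132, 111 and 104 in the same 3 steps outside and 64, 63 and 40 inside. In the 1599 stretches of regions within 100 bp of a gene end they numbered 459, 425 and 394. Of these stretches 54.6% (52.1 to 57.1%) held a GC box, against 32.7% of all promoters placed alike. In CpG-rich windows the share was 63.1% (60.1 to 66.1%) against 58.0%. The steps were not counted in all promoters. The letters GCGCATGC, part of the site of Nrf1, a factor of mitochondrial genes, were in 4.14% (2.64 to 6.15%) of outside stretches against 0.857% of all promoters, and in 4.85% (3.06 to 7.24%) against 1.68% in CpG-rich windows. In the inside stretches they were in 3.75% (1.73 to 6.999%) against 1.64%, and in 3.47% (1.28 to 7.40%) against 3.05% in CpG-rich windows. Regions within 100 bp of a gene end held these letters in 6.19% (5.06 to 7.49%) against 1.73%, and in 6.32% against 3.12% in CpG-rich windows. TATA boxes (TATAAA) were in 0.541% of outside stretches against 3.79% of all promoters, but in 0.661% (0.136 to 1.92%) against 0.870% in CpG-rich windows. The letters of ETS factors (CCGGAAG) were in 5.59% of outside stretches against 2.69%, and in 5.95% against 5.16% in CpG-rich windows, where the inside stretches had 8.09% against 8.99%. The E-box CACGTG, the cAMP response element TGACGTCA, the AP-1 site, spelled TGANTCA, and the Yy1 letters AAGATGGC were searched too. Each pattern was searched on both strands.

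The homeodomain core TAATTA was in none of the 555 outside stretches (exact 95% upper limit 0.662%, and 0.541% by 3 counts of 555) and in 1 of 240 inside stretches (0.417%). All promoters held it in 1.96% and 1.59% of stretches in the same places, but in 0.269% and 0.218% in CpG-rich windows, where the outside and inside stretches had 0 of 454 (upper limit 0.809%) and 0 of 173 (2.11%). The shorter TAAT was in 11.9% (9.32 to 14.9%) of outside stretches against 28.2% of all promoters, and in 10.8% (8.09 to 14.0%) against 10.9% in CpG-rich windows. In the inside stretches it was in 24 of 240 against 24.7% of all promoters, and in 4.62% (2.02 to 8.91%) against 8.15% in CpG-rich windows. Every TAATTA also holds TAAT. These counts describe letters in windows near annotated starts.

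Most genes had 1 such region. Of the 1886 genes, 1788 had 1 region, 97 had 2 and 1 had 3. The gene with 3 was Arhgap11a, with summits 122, 495 and 711 bp before its start and 8, 12 and 8 tags. Among the 92 genes with more than 1 region at the same end, 32 had them on both sides of the gene end, 32 outside only and 28 inside only, and the median gap between neighbouring summits was 422 bp (interquartile range 307.75 to 616.75). Rab40c, of the Rab GTPase family, had 67 tags 432 bp before its start and 21 tags at 821 bp.

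Some stood beside a nearer region. Of the 1985, 187 (9.42%, 8.17 to 10.8%) belonged to a gene that also had an Otp region within 100 bp of an end. The share was 12.5% (10.3 to 15.1%) of the inside and 7.46% (6.05 to 9.08%) of the outside regions. Over all protein-coding genes, 11.5% had a region within 100 bp of an end. For 183 of the 187 the nearer region was at the same end, at a median gap of 357 bp between summits. In 116 of the 183 the nearer region had the higher fold enrichment (medians 7.10 and 6.20). An end of a long non-coding RNA gene lay within 1 kb of 16.6% (14.6 to 18.9%) of the outside regions, 14.0% (11.6 to 16.6%) of the inside ones and 13.3% of those within 100 bp of a gene end.

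Genes were then grouped by function. Over all 20665 protein-coding genes on chromosomes 1 to 19, 9.13% had a region of this class, 5.72% outside and 3.56% inside, and 11.5% had a region within 100 bp of an end. Of 20 pathway lists, 16 had a higher share than that, and in 8 the whole 95% interval lay above it. The lists were drawn up with earlier results of these data known, and all genes include families that lack such regions, such as 1104 olfactory and 354 vomeronasal receptor genes with 0 each, so the shares are descriptions. The largest share was that of the immediate early genes, which activity induces in neurons, with 8 of 25 (32.0%, 14.9 to 53.5%), all outside the gene. Among them the zinc finger factor Klf6 had 33 tags and a fold enrichment of 13.6 at 145 bp before its start, Ier5 had 9.13 at 130 bp, Egr1 had 8.06 at 372 bp from its end and Klf10 had 7.96 at 117 bp. In this list 3 of the 25 had a region within 100 bp of an end, near the 11.5% of all genes.

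Ubiquitin ligases had 9 of 30 genes (95% interval 14.7 to 49.4%), led by the scaffold Cul3 with a fold enrichment of 12.7 and 29 tags at 261 bp before its start, Wwp1 (11.9), Cblb (11.9) and the substrate adaptor Btrc (10.5). Cblb was inside the gene, 310 bp from its end but 9 bp before an annotated start. Rab and Arf GTPases, which steer vesicles, had 9 of 30 too, led by Rab8a (11.8, 36 tags), Rab1a (11.4, 34 tags) and Rab14 (10.7, 30 tags), all 113 to 135 bp before the start, and Arf4 (8.55). Kinases of growth and stress pathways had 8 of 39 (20.5%, 9.30 to 36.5%), 7 of them outside. Mtor, the kinase that couples nutrients to growth, had 39 tags and 15.1 at 105 bp before its start, Prkaca, a catalytic subunit of protein kinase A, had 11.2, Pik3ca had 10.9 and Gsk3b had 9.70.

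Synaptic vesicle genes had 7 of 28 (95% interval 10.7 to 44.9%), with Pclo, a scaffold of the active zone, at 14.9 and 33 tags, Vamp1 at 13.0 and Amph at 10.4. Voltage-gated channels had 6 of 33, with fold enrichments of 4.61 to 6.97, adhesion genes had 5 of 28, and glutamate and GABA receptors had 2 of 24, Grm3 (7.53) and Gabrg1 (6.77). The 95% intervals of these lists of channels, adhesion genes and receptors included the 9.13% of all genes. None of 29 axon guidance genes had a region of this class (0%, upper bound 11.9%), and 7 of the 29 had one within 100 bp of an end, which 11.5% of all genes had.

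Genes known for their part in the PVN came next. Of the 17 neuropeptide genes Trh alone had a region here (5.88%, 0.149 to 28.7%), past its far end. Of 19 transcription factors of the lineage, 5 did (26.3%, 9.15 to 51.2%): the POU factors Pou3f2 (18 tags, 8.70, 337 bp before its start) and Pou3f3 (12 tags, 7.15, 146 bp before), Meis1 (12 tags, 7.48, inside the gene and 79 bp before an inner start), Zfhx4 (5.92) and Pbx3 (5.12). Of the 25 energy balance genes the prohormone convertase Pcsk1 alone did (4%, 0.101 to 20.4%). Its region had 7 tags (2.81 to 14.4) and 4.70, inside the gene end but 68 bp before an annotated start. The intervals of the neuropeptide and energy balance lists both include the 9.13% of all genes. In the energy balance list 6 of the 25 had a region within 100 bp of an end, which 11.5% of all genes had.

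Signalling, clock and housekeeping lists were counted in the same way. TGF-beta and BMP signalling had 7 of 26 genes, led by the receptor Tgfbr1 (14.8, 33 tags), Smad4 (8.12) and Acvr2b (6.36). Clock genes had 6 of 24, led by Nr1d2, a repressor of the clock (10.4, 36 tags), Ciart (8.00) and Bhlhe40 (7.91). Translation factors had 5 of 22, with Eif4ebp2 (10.6), Eef1a1 (9.44) and Pabpc1 (9.05). Cytoskeleton genes had 6 of 29, led by the tubulins Tuba1a (8.41) and Tuba1b (8.09). Splicing factors had 6 of 40, led by U2af1 (9.33) and Nova2 (8.33), chromatin modifiers 4 of 34, led by Chd8 (8.68) and Hdac1 (8.36), autophagy and lysosome genes 4 of 28, led by Ctsd (9.62) and Gabarapl2 (8.72), and Wnt, Notch and Hedgehog signalling 4 of 30, led by Sufu (7.87) and Fzd1 (7.05). Of 84 entries in 8 marker lists of neurons, glia, vessels and other organs, 2 had a region: the pan-neuronal Snap25 (5.67, 13 tags) and Mbp of oligodendrocytes (5.83, 10 tags). The intervals of the translation, cytoskeleton, splicing, chromatin, autophagy and Wnt, Notch and Hedgehog lists include the 9.13% of all genes. Those of TGF-beta and BMP signalling and of the clock genes lie above it. Each of the 8 marker lists has an interval that includes it. Peak lists hold no expression values, so the labelled cell type could not be checked by them.

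**Figure D5:**
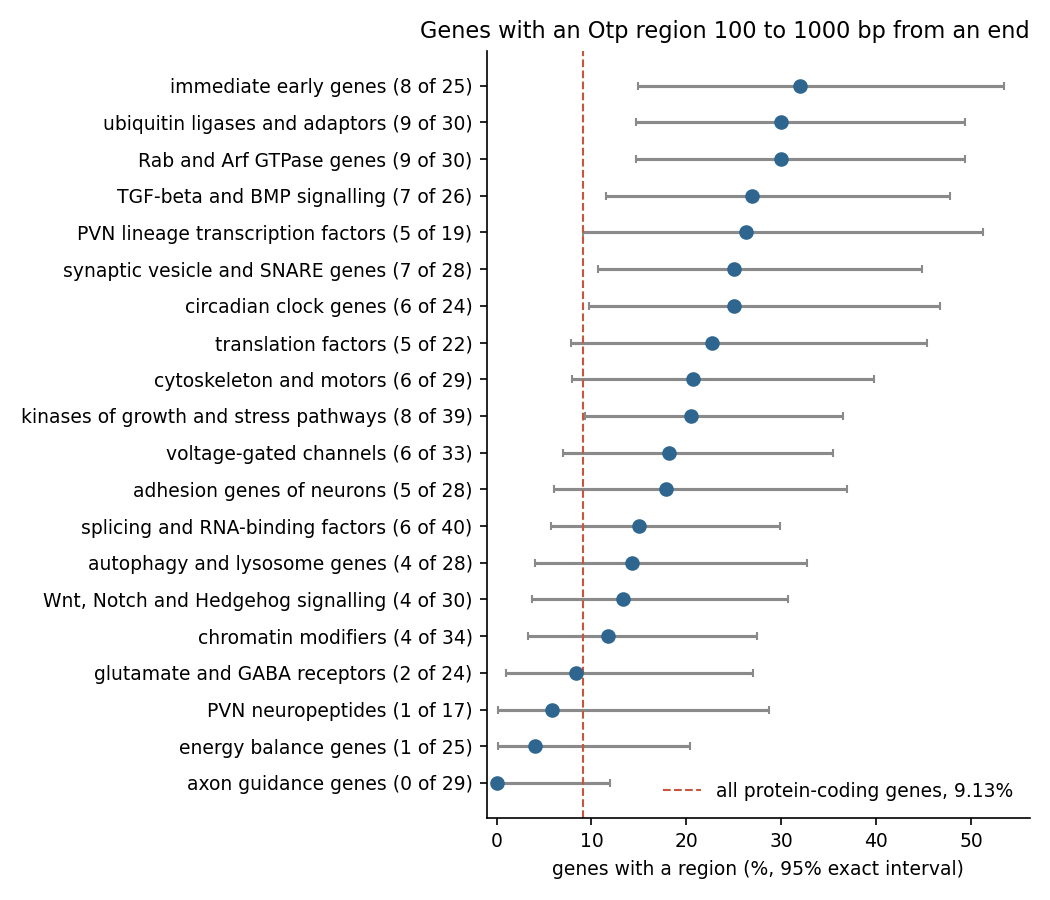
Share of genes with an Otp region 100 to 1000 bp from an end in 20 pathway lists, in percent with 95% exact intervals, and the number of genes beside each name. The dashed line marks the 9.13% of all protein-coding genes, and the lists run from 0 of 29 axon guidance genes to 8 of 25 immediate early genes.

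Families grouped by symbol were counted with the side of the gene on which their regions lay. Over all members 38.5% of regions lay inside the gene, and 3.56% of all genes had one inside and 5.72% outside. The split by side was not tested in any family. Cytosolic ribosomal protein genes had 23 of 94 (24.5%, 16.2 to 34.4%), 20 of them outside the gene, among them Rpl13a with 43 tags and a fold enrichment of 12.9 at 153 bp. Protein phosphatase subunits had 18 of 76 (23.7%, 14.7 to 34.8%), led by the catalytic subunits Ppp1cb (14.6, 34 tags) and Ppp3ca (14.1, 34 tags). Rab genes had 12 of 65 (18.5%) and proteasome genes 8 of 50 (16.0%), with Psma5 at 11.2 and Psmd3 at 9.29. Zinc finger Zfp genes had 46 of 388 (11.9%, 8.81 to 15.5%), more of them with a region inside the gene (27) than outside (21), and 111 of the 388 had one within 100 bp of an end, which 11.5% of all genes had. Their highest were Zfp97 (15.3, 27 tags, 47 bp before an inner start) and Zfp143 (12.9, 46 tags). RING finger genes had 9 of 80 (11.25%, 5.28 to 20.3%), 7 of them inside. The intervals of the proteasome, Zfp and RING finger genes include the 9.13% of all genes.

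Other families lay near or below the share of all genes. Solute carriers had 30 of 362 (8.29%), with Slc35b1 at 13.6 and Slc25a25 at 12.8. Mitochondrial ribosomal proteins had 7 of 78 (8.97%), led by Mrpl11 (7.77), and complex I of the respiratory chain 2 of 47 (4.26%), Ndufb4 (14.3, 34 tags) and Ndufs5 (9.30). Potassium channel genes had 4 of 92 (4.35%), Sox and forkhead genes 4 of 59, led by Sox11 (10.6), and Hox genes 1 of 39, Hoxb8 (7.94). None of 112 keratin genes had one.

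Depth limits what the IgG library can say about these regions. Its genome background was 0.0873 tags, against 0.512 in the Otp library, a ratio of 5.86. Members had 6 to 125 tags with a median of 16, over the 1968 of 1985 whose pileup could be worked out. Scaled by the background ratio, 485 of the 1968 (24.6%, 22.8 to 26.6%) would reach at least 4 tags in the IgG library, the pileup of its weakest region, 30.5% of outside and 15.3% of inside regions. Scaled instead by 0.305, the median over 226 shared regions of IgG tags divided by Otp tags, 62.7% (60.5 to 64.8%) would. Where the scaled value is below 4 tags, the lack of an IgG region shows no difference from IgG at this depth. Among others, this was so by both scalings for the regions named above at Kcna2 (13 tags), Trh, Pou3f3 and Meis1 (12 each), Kcnd3 (11), Mbp (10) and Pcsk1 (7). The 15 strongest regions scaled to 8.87 to 21.3 tags outside and 5.80 to 13.5 inside by the background ratio.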

How the data were processed

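CUT&RUN of wild-type mouse PVN gave 1 Otp and 1 IgG library, grouped by the antibody label. The submitters' processing notes name build mm10 and the tools Trimmomatic, Bowtie2, SAMtools, Picard and MACS2, without a role for each. Settings, versions and any control library are not given in the sources used. Each library has a deposited list of its own. Its columns of fold enrichment, a ratio, of −log10 p and of −log10 q were used as the authors gave them, and the deposited display score was not used. Read totals are unknown.

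A summit is the region's start plus the deposited offset, a deposited position in bp. Gene ends came from RefSeq GRCm38.p6, and strand and starts from the RefSeq promoter table, which covers part of the genes. Overlap with IgG meant at least 1 bp. Whole-number pileups were solved from fold enrichment and −log10 p (tolerance 0.001, next number missing by over 0.005), a step tested on simulated data. Shares have exact (Clopper-Pearson) 95% intervals, medians binomial order-statistic intervals and tags Poisson intervals. PCR reads are not independent molecules.

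Members and lists were chosen with earlier results of these data known. Of 647 list genes, 632 were found on chromosomes 1 to 19. Named genes are the 15 regions per side with the highest −log10 q, genes with 3 or more regions, up to 4 per list and 2 per family by fold enrichment, and the 3 regions on each side of a distance bound. A few genes this rule names are not reported here. Alternatives were other thresholds, bounds, gene sets, positions and overlap rules. Python 3.11.15, numpy 2.4.6, scipy 1.17.1, pandas 2.3.3 and matplotlib 3.10.9 were used.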

Additional observations from a re-analysis of the deposited data

How the results depend on the processing

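Of 66 values recomputed under 11 other settings, 29 moved outside their interval or by over 1.5 times. With regions under a −log10 q of 5 left out, the share inside was 35.2%, the median fold enrichment 8.22, the median width 199 bp and the share with a nearer region 6.21%. With those under 10 left out, 908 regions of 896 genes were left, with 27.9% inside, 10.07, 258 bp and 2.09%. With those under a fold enrichment of 5 left out, the last 3 values were 7.82, 187 bp and 7.61%. An inner bound of 50 bp gave 2998 regions, 31.4% inside and 40.0% with a nearer region, which then counts regions from 50 to 100 bp themselves. One of 200 bp gave 1057 regions of 1012 genes, 58.5% inside, 6.84, 147 bp and 15.9%, so that the excess of outside regions rests on the distances from 100 to 200 bp. An outer bound of 500 bp gave 31.8% inside, 7.69 and 184 bp, and one of 2 kb gave 44.1% inside and 164 bp. With all annotated genes the medians were 7.21 and 158 bp. The middle of the region in place of the summit and both other overlap rules moved none of the 6 values. Settings chosen after seeing the data put the share of inside regions before a start at 56.9% with those under a −log10 q of 5 left out and 61.7% with those under 10 left out, and the share of outside summits with a CCAAT box at 40.6% under the second of these limits. Total depth is unknown, and strand was known for 81.3% of regions. No paired analysis was possible because Otp and IgG have 1 library each, and for the same reason none was left out.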
